A study of Mus musculus with 3 samples.

Results

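Complement components and regulators were examined across 3 RNA-seq libraries of RAW264.7 cells, a mouse macrophage line from a virus-induced tumour. The genes were the 8 rows of the deposited table named C1qa, C1qb, C1qc, C2, C3, C4b, Cfb and Cfp, out of 26661 genes. All 3 libraries came from wild-type cells of this single line. The first was grown in medium alone (control). The second received lipopolysaccharide (LPS), a bacterial glycolipid sensed by toll-like receptor 4, for 6 h at a dose of 0.5 µg/ml. The third received 10 µM harmine, a plant alkaloid that inhibits the kinase DYRK1A and monoamine oxidase A, 0.5 h before the same LPS exposure. With 1 library per condition there is no replicate check on any value, no p-value is given, and differences between cultures are part of every comparison. No library received harmine without LPS, so a harmine effect that needs LPS and one that does not cannot be told apart.

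Complement is a cascade of plasma proteins that tags particles for uptake and releases peptides that attract leukocytes. C1q, built from the chains A, B and C, binds antibody or damaged cells and starts the classical pathway, in which C4 and C2 are cleaved to form the enzyme that splits C3. Factor B (Cfb) forms the corresponding enzyme of the alternative pathway, and properdin (Cfp) stabilises it. Liver makes most plasma complement, while tissue macrophages are a main source of C1q, and myeloid cells are a main source of properdin.

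The genes lie in 4 places of the mm10 genome, all on the minus strand. C1qb, C1qc and C1qa lie together on chromosome 4 (136880129 to 136886187, 136889804 to 136893065 and 136895917 to 136898803), within 18675 bases. C4b (34728380 to 34743882), Cfb (34856374 to 34862518) and C2 (34862604 to 34898265) lie on chromosome 17 in the class III region of the major histocompatibility complex, with 85 bases between Cfb and C2. C3 lies elsewhere on chromosome 17 (57203970 to 57228136), and Cfp on the X chromosome (20925454 to 20931555).

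Promoter sequences from RefSeq, build GRCm38.p6, were found for 4 of the 8 genes. All 4 are shown, for 3 genes that were scarce in control and higher with LPS (C1qb, C1qc, C3) and for the abundant Cfp. None was found for C1qa, Cfb, C2 or C4b, so scarce genes that did not stand apart with LPS are not covered. Each runs 5′ to 3′ on the gene's minus strand from 250 bases before the start to 50 after it: chr4:136886151-136886450 for C1qb, chr4:136892865-136893164 for C1qc, chr17:57228087-57228386 for C3 and chrX:20931506-20931805 for Cfp. Capitals mark matches, on either strand, to 5 searched motifs: GGGNNNNNCC (NF-kB), GAAANNGAAA (interferon response element), TTGCNNAA (C/EBP), GAGGAAG (PU.1) and TGCTGAC (MAF core).
C1qb: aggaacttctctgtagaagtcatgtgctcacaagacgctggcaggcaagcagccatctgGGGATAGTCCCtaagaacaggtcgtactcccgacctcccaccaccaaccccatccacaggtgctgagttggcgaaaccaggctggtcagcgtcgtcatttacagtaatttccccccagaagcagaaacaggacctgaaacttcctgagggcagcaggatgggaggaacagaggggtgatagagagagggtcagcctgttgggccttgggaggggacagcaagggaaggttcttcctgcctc
C1qc: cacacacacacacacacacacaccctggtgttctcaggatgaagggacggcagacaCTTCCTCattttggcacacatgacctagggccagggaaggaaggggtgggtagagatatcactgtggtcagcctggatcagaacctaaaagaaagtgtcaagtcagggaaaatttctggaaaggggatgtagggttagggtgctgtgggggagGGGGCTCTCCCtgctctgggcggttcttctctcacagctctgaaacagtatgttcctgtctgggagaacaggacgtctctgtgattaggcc
C3: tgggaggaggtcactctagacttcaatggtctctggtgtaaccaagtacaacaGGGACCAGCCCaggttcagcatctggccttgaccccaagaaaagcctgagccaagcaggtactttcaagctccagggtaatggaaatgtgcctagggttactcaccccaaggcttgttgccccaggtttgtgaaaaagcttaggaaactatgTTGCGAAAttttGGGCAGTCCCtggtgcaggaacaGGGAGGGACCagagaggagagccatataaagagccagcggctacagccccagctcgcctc
Cfp: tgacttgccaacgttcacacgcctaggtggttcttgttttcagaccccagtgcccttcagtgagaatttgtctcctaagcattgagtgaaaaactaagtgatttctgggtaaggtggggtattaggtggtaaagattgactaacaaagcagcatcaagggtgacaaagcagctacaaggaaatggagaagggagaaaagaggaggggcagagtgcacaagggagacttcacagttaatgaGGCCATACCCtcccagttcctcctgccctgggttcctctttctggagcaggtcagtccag

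All 4 windows held the NF-kB letters, with positions counted from the RefSeq start as +1. They lay at -191 to -181 of C1qb, -41 to -31 of C1qc and -10 to -1 of Cfp. C3 held them in 3 places (-197 to -187, -33 to -24 and -10 to -1). The RefSeq start is that of the deposited gene for C3 and Cfp, but not for C1qb and C1qc. The deposited C1qc gene begins further upstream, at 136893065, so its -41 to -31 match lies inside that gene. Matches on both strands overlap in C1qb, C1qc and C3. Of all 32851 promoters of this length in the table, 50.8% held these letters, so the match does not set the 4 apart. C3 also held the C/EBP letters at -45 to -38, which 10.8% of promoters hold, and C1qc the PU.1 letters at -194 to -188, which 13.6% hold. The interferon element and the MAF core, found in 3.44% and 4.67% of promoters, were not in these windows. A match is a description of letters and not of a bound site.

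The deposited counts summed to between 52845589 and 58169999 per library, and 4 counts were taken as 1 read pair, since counts of exactly 4 were more frequent than counts of 3 in every library. FPKM, a count of fragments corrected for the length of the transcript and for sequencing depth, is the level used throughout, and allows genes to be compared per length. An interval in brackets after an FPKM ratio is the 95% exact binomial interval of the split of read pairs between the libraries, and it covers counting error only. Levels are given in the order control, LPS and harmine plus LPS from here on. The macrophage identity of the cells was plain from Cd68 at 522, 444 and 602 FPKM and Csf1r at 259, 65.8 and 68.2 FPKM. Against LPS alone, these were the 2 of 10 listed macrophage markers that stood higher with harmine plus LPS. The other 8 stood lower, among them Cd14 at 231, 813 and 476 FPKM and Lyz2 at 967, 525 and 283 FPKM. The tissue-macrophage receptor Mertk stayed at or below 0.206 FPKM, and the lung marker Sftpb, for the tissue named in the labels, at or below 0.0130 FPKM.

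Cfp dominated the group. Its level was 64.7, 66.4 and 55.9 FPKM (7439, 6938 and 6205 deposited counts), so that at least 96.8% of all genes in the table stood at or below it in every library. The other 7 genes lay between 0.0618 and 2.18 FPKM. In control none of the 7 reached 1 FPKM, and C3, the highest, stood at 0.615 FPKM. With LPS, the order was C1qa at 2.18 FPKM, C1qb at 1.71 (95% Poisson interval 1.14 to 2.47), C3 at 1.65 (1.38 to 1.96), Cfb at 1.34 (1.03 to 1.75) and C1qc at 0.888 (0.580 to 1.30), with overlapping intervals between neighbours. C4b and C2 were lowest, at 0.275 (0.178 to 0.413) and 0.191 (0.101 to 0.340), and their intervals overlapped too.

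**Figure D1:**
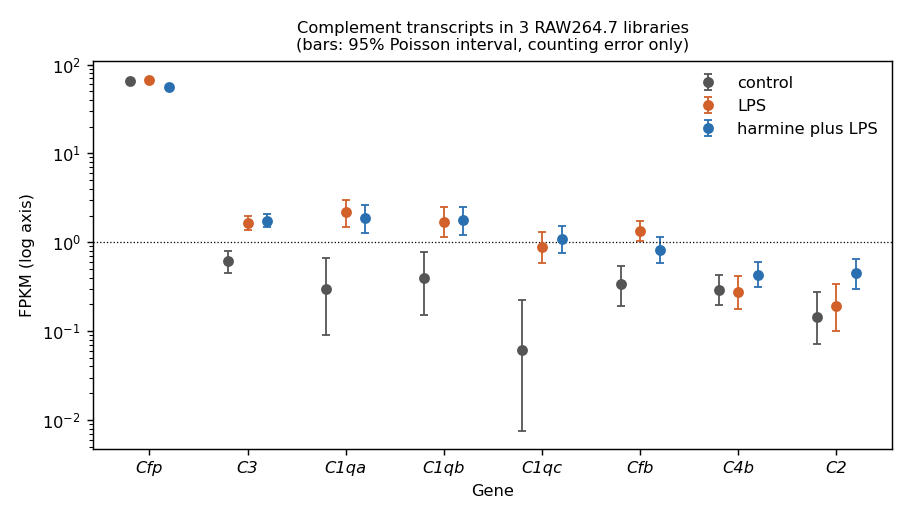
FPKM of the 8 complement genes on a log axis in the control, LPS and harmine plus LPS libraries (1 library each); bars are 95% Poisson intervals and the dotted line marks 1 FPKM. Cfp sits between 55.9 and 66.4 FPKM and every other gene at or below 2.18 FPKM, and C1qa, C1qb, C1qc, C3 and Cfb stand lower in control than in either LPS library.

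The first comparison asked what LPS did to these transcripts. The 3 C1q chains, C3 and Cfb stood higher with LPS than in control, by 2.69-fold for C3 to 14.4-fold for C1qc. Cfp, C4b and C2 did not stand apart from control beyond counting error. These are bulk libraries, in which more cells of a type and more RNA per cell cannot be told apart. A gene was called at a log2(FPKM + 1) difference of 2-fold or more, among the 12197 genes that reached 1 FPKM in any library; this scale understates the difference of scarce genes such as these.

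The recognition subunit C1q was nearly absent in control. C1qa, which encodes the A chain, stood at 0.296, 2.18 and 1.86 FPKM, from 21, 137 and 124 deposited counts. The LPS level was 7.37-fold (2.99 to 25.2) that of control. C1qb, the B chain, stood at 0.394, 1.71 and 1.79 FPKM from 29, 112 and 125 counts, 4.34-fold (1.92 to 12.2) higher with LPS. C1qc, the C chain, stood at 0.0618, 0.888 and 1.09 FPKM from 8, 104 and 136 counts, 14.4-fold (3.59 to 125) higher with LPS. All 3 chains were low in the control library and similar in the other two. Over the 3 chains together the summed level was 0.752, 4.78 and 4.74 FPKM. The A, B and C chains made up 39.4%, 52.4% and 8.22% of it in control, 45.7%, 35.8% and 18.6% with LPS, and 39.3%, 37.7% and 23.0% with harmine plus LPS; the control shares rest on 58 deposited counts.

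C3, on which all activation pathways converge, stood at 0.615, 1.65 and 1.75 FPKM from 210, 512 and 576 counts. The LPS level was 2.69-fold (1.95 to 3.82) that of control. Cfb, the alternative pathway protease, stood at 0.340, 1.34 and 0.827 FPKM from 65, 231 and 151 counts, 3.95-fold (2.29 to 7.51) higher with LPS. Both were lowest in control, and Cfb was intermediate with harmine plus LPS. C4b, of the classical pathway, stood at 0.293, 0.275 and 0.431 FPKM from 112, 95 and 158 counts, a ratio of 0.937 (0.526 to 1.69) for LPS over control. C2, the protease that pairs with C4, stood at 0.143, 0.191 and 0.445 FPKM from 38, 47 and 112 counts, a ratio of 1.33 (0.513 to 3.35). This wide interval holds 1 and also overlaps those of C3 and Cfb, so C2 is not shown to differ from them. Cfp had a ratio of 1.03 (0.961 to 1.10), close to 1 with a narrow interval.

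On the log2(FPKM + 1) scale only C1qa passed 2-fold among the 8 genes, at 1.30, beside 0.96 for C1qb, 0.83 for C1qc, 0.81 for Cfb, 0.72 for C3, 0.06 for C2, 0.04 for Cfp and -0.02 for C4b; the last turned to 0.0025 under upper-quartile scaling. No member was 2-fold or more lower. Among all genes compared, 5.79% were called higher and 7.21% lower. Of the 8, 6 passed the filter of 1 FPKM, and 5 of these, all but Cfp, passed it only through the LPS-treated libraries, so their count carries no weight of its own; C2 and C4b stayed below it. By plain FPKM ratio, an alternative chosen after seeing the data, 5 of the 6 were 2-fold or more higher with LPS, as they were with a pseudocount of 0.1 FPKM, beside 8.84% and 8.76% of all genes compared under these settings; the same filter limits both counts. The median log2 difference without a filter was 0.76 over all 8 and 0 over all genes in the table. That 0 is a weak background, because only 12197 of the 26661 genes reached 1 FPKM and this scale shrinks differences of the rest. Among the 12197 genes compared the median was -0.13.

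**Figure D2:**
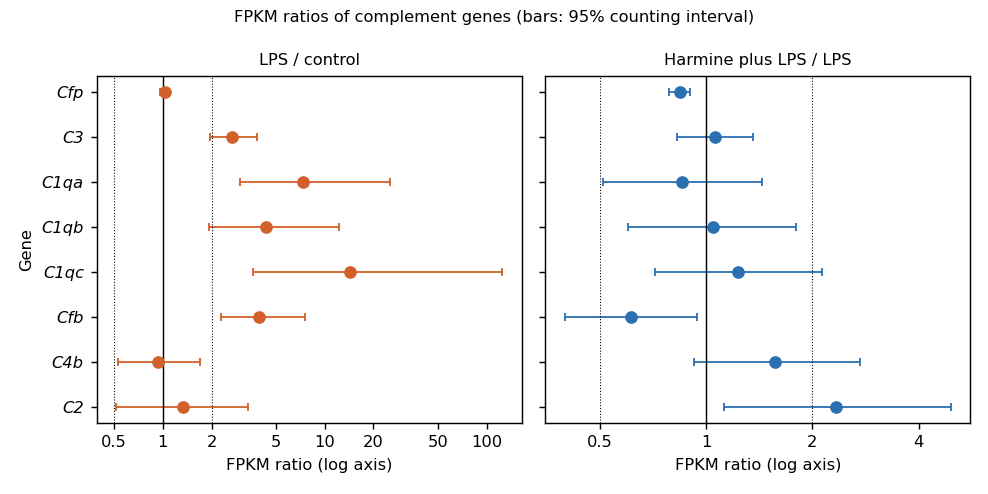
FPKM ratios of the 8 genes on a log axis, LPS over control on the left and harmine plus LPS over LPS on the right, with 95% counting intervals; the solid line marks 1 and the dotted lines 0.5 and 2. On the left the intervals of C1qa, C1qb, C1qc, C3 and Cfb lie above 1, and on the right those of Cfp and Cfb lie below 1 and that of C2 above it.

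Control also held the lowest summed level of marker transcripts of 4 other cell types. The 8 fibroblast markers summed to 2.00, 11.1 and 11.1 FPKM, with all 8 above control in both LPS libraries. The 7 epithelial markers in the table summed to 4.46, 18.2 and 23.3 FPKM. The ratio of LPS to control was 6.36 for the summed C1q chains, 5.57 for the fibroblast sum and 4.08 for the epithelial sum. Hepatocyte markers summed to 11.3, 33.2 and 38.5 FPKM, most of it Apoa1 at 8.26, 29.4 and 31.8 FPKM. Of the 6 in the table, 3 were above control and 2 below it with LPS, and all 6 were above it with harmine plus LPS. The 2 below were Ttr at 1.18, 0.782 and 2.85 FPKM and Trf at 1.04, 0.749 and 1.11 FPKM. Albumin (Alb) was at 0 in control and LPS and at 0.0765 FPKM in harmine plus LPS. Lymphocyte markers summed to 0.121, 0.329 and 0.726 FPKM, with 4 of 7 at 0 in control. Syn1, a neuronal gene 4449 bases from Cfp, stood at 0.0978, 1.04 and 1.04 FPKM. Macrophage markers summed to 2101, 1956 and 1486 FPKM, with 4 of 10 above control and 6 below it with LPS. With harmine plus LPS, 2 of the 10 stood above LPS and 8 below it. The part of other cells in the higher C1q, C3 and Cfb levels was not tested.

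**Figure D3:**
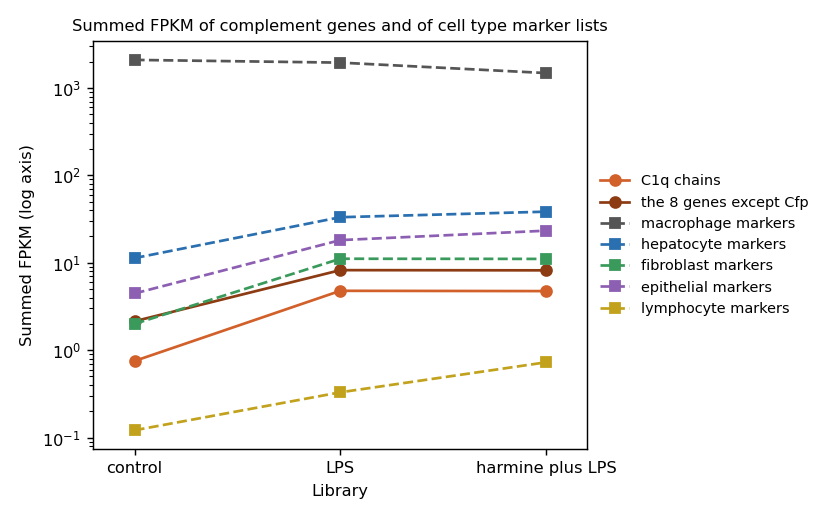
Summed FPKM on a log axis in the 3 libraries for the 3 C1q chains, the 8 complement genes without Cfp, and 5 lists of cell type markers; lines join the values of one set. The C1q sum (0.752, 4.78 and 4.74 FPKM) and the fibroblast sum (2.00, 11.1 and 11.1 FPKM) both stand higher in the LPS libraries, while the macrophage sum is lower in both LPS libraries than in control.

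The next comparison addressed harmine given ahead of LPS. The C1q chains and C3 did not stand apart from LPS alone beyond counting error: the ratio of harmine plus LPS to LPS was 0.854 (0.511 to 1.44) for C1qa, 1.05 (0.602 to 1.79) for C1qb, 1.23 (0.717 to 2.14) for C1qc and 1.06 (0.830 to 1.36) for C3. All 4 intervals hold 1, and differences inside them were not detectable at this depth. Cfp, the abundant one, was 1.19-fold (1.11 to 1.27) lower with harmine. Cfb was 1.63-fold (1.06 to 2.51) lower, and C2 stood 2.34-fold (1.13 to 4.94) higher. C4b had a ratio of 1.57 (0.924 to 2.72).

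None of the 8 genes was 2-fold or more higher or lower with harmine on the log2(FPKM + 1) scale, against 0.664% of all genes called higher and 0.935% lower. The log2 differences were 0.28 for C2, 0.17 for C4b, 0.15 for C1qc, 0.05 for C3, 0.04 for C1qb, -0.15 for C1qa, -0.25 for Cfp and -0.36 for Cfb; those of C3 and C1qb turned to -0.04 and -0.05 under median-of-ratios scaling and to -0.03 and -0.04 under upper-quartile scaling. The median of all compared genes was 0.10 log2 with the deposited scaling, -0.02 with median-of-ratios and -0.0035 with upper-quartile scaling, and Cfp and Cfb lay below it in each. The share of higher genes among all calls was 41.5% with deposited values and 25% and 28.4% with these scalings. It was 57.6% with TPM and 60.8% with a pseudocount of 0.1 FPKM. TPM divided the libraries by near-equal factors (0.328, 0.320 and 0.323) and left the median at 0.10. It thereby lowered the FPKM at which the pseudocount and the filter act, and 15251 genes were compared.

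The values of Cfb and C2 cannot be read separately with confidence. A read-through gene, Gm20547, overlaps both on the same strand, and 80.7% of the 150-base windows of the longest coding Cfb transcript and 48.3% of those of C2 occur in it. Gm20547 had 0, 31 and 56 deposited counts. The counts of Cfb and Gm20547 together gave a ratio of 0.741 (0.505 to 1.08) for harmine plus LPS over LPS, an interval that holds 1. Those of C2 and Gm20547 gave 1.98 (1.13 to 3.55), and 2.20 (0.984 to 5.27) for LPS over control. The counts of all 3 summed to 103, 309 and 319, a ratio of 3.26 (2.07 to 5.30) for LPS over control and 0.978 (0.706 to 1.35) for harmine plus LPS over LPS. Zbtb12, on the opposite strand within C2, had 1593, 414 and 415 counts, and Nelfe, 1 base from the end of Cfb on the opposite strand, 3026, 1790 and 2793; whether strand was used in counting is not stated in the labels. C4b shares 8.26% of its windows with C4a, and both together gave a ratio of 1.56 (0.987 to 2.50) for harmine plus LPS over LPS. No 150-base window of the C1q chains, C3 or Cfp occurred in a transcript of another gene.

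Set against control, the harmine plus LPS library again stood higher for C1q, C3 and Cfb; this comparison shares a library with each of the other two. The ratios were 6.29 (2.55 to 21.8) for C1qa, 4.54 (2.01 to 12.5) for C1qb, 17.7 (4.53 to 152) for C1qc, 2.85 (2.08 to 4.03) for C3 and 2.43 (1.35 to 4.77) for Cfb. C2 reached 3.12-fold (1.40 to 6.84) and C4b 1.47-fold (0.895 to 2.50), and Cfp was 1.16-fold (1.08 to 1.24) lower. C1qa, at 1.14 log2, was the 1 member called higher and none was called lower, beside 5.14% and 4.86% of all genes; C1qb lay at the threshold, at 0.999 log2.

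The rest of the complement system was partly present in these cells. Of 57 listed genes, 46 were in the table and 16 reached 1 FPKM, beside 12197 of all 26661 genes. With LPS 2 of the 16 were called higher and 3 lower, where the shares over all genes were 5.79% and 7.21%. With harmine plus LPS against LPS none was higher and 1 lower, where those shares were 0.664% and 0.935%. Both higher genes were receptors for the cleavage peptides: C3ar1, for C3a, stood at 2.65, 18.0 and 12.8 FPKM. Its LPS level was 6.79-fold (5.83 to 7.98) that of control, and harmine plus LPS was 1.41-fold (1.29 to 1.54) below LPS. C5ar1, for C5a, was the gene lower with harmine, at 1.73, 33.7 and 4.87 FPKM. The transcript of C5 itself, Hc, had no counts in control or LPS and 4 with harmine plus LPS, and none of the 4 terminal pathway genes in the table reached 1 FPKM.

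Recognition proteins were among the genes called lower. Colec12, a membrane collectin, stood at 16.6, 6.12 and 6.21 FPKM, and Fcna, encoding ficolin A, which starts the lectin pathway, at 3.29, 1.10 and 0.896 FPKM. Both were highest in control, the opposite order to C1q. Cr1l, encoding Crry, the membrane regulator of rodent cells, stood at 7.97, 8.78 and 7.90 FPKM. The integrin chains of complement receptor 3 differed from each other: Itgam, the alpha chain, stood at 19.1, 13.0 and 7.86 FPKM, and Itgb2, the shared beta chain, at 54.2, 62.3 and 48.9 FPKM. Of the listed proteins reported to bind C1q, some were abundant. C1qbp stood at 102, 69.7 and 69.4 FPKM, calreticulin (Calr) at 454, 384 and 229 FPKM and Lrp1 at 35.3, 17.3 and 17.1 FPKM. Others in the receptor list were scarce. Cd93 stood at or below 0.205 FPKM, Megf10 at or below 0.0557, Scarf1 at or below 0.246 and Lair1 at or below 0.717 FPKM.

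**Figure D4:**
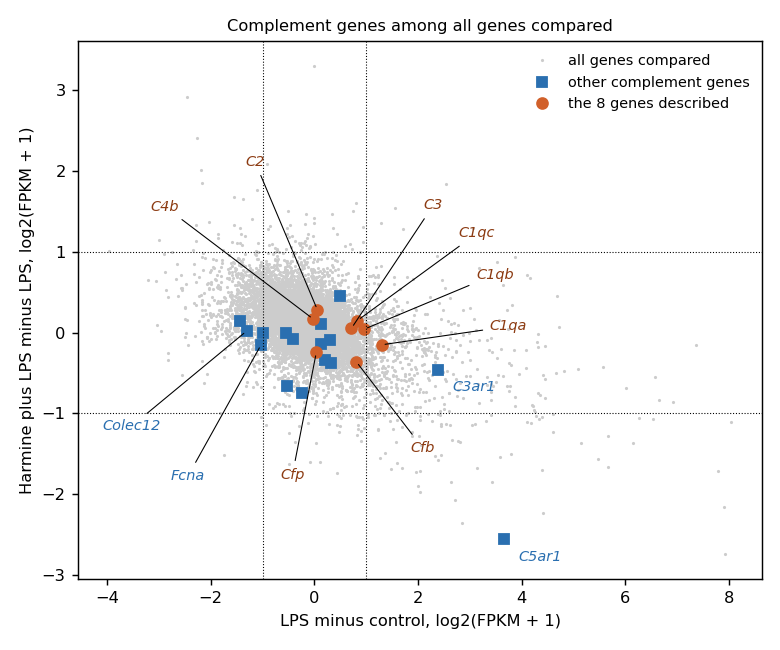
Difference of each gene in log2(FPKM + 1), LPS minus control on the horizontal axis and harmine plus LPS minus LPS on the vertical axis, for all genes compared, the other complement genes compared and the 8 genes described; dotted lines mark 2-fold, and both axes contain the LPS library. C1qa is the 1 of the 8 to the right of the 2-fold line, at 1.30, and none lies outside it vertically, while C5ar1 lies far to the right and below.

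Among transcription factors reported to act on complement promoters, 5 of the 13 compared were called higher with LPS and none lower, beside 5.79% and 7.21% of all genes. Rel and Nfkb1, subunits of NF-kB, stood at 6.65, 44.6 and 49.3 FPKM and at 13.6, 75.1 and 66.7 FPKM. Cebpd stood at 3.25, 17.0 and 12.7 FPKM, Stat3 at 4.66, 11.4 and 6.89 FPKM and Cebpb at 13.0, 19.9 and 20.4 FPKM. None of the 13 was called in either direction with harmine.

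Of the 8 genes, Cfp was the one with at least 10 FPKM, and the genes with the most similar pattern to it over the 3 libraries were Lars2, Cops5 and Arf3. Likeness was the distance over both log2 differences, 0.0126, 0.0239 and 0.0272 respectively, among 4734 genes of at least 10 FPKM, of which 50 lay within 0.1 of Cfp. Elk1, the gene 1839 bases from Cfp, stood at 3.59, 5.57 and 5.90 FPKM.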

How the data were processed

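The labels describe poly(A)-selected RNA made into dUTP-marked libraries and read as pairs of 150 bases. The authors deposited FPKM per gene and library, per the file headers. The estimated counts beside them were deposited unscaled. HISAT2 2.2.1, StringTie 2.1.6, cutadapt 1.9 and the build mm10 appear in the submitters' processing notes, with no role stated. The ratio of count to FPKM was constant between libraries up to 1 factor (SD 0.00583 log2, LPS against control, 12036 genes with over 50 counts in each library).

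Differences are log2(FPKM + 1), called at 2-fold among genes with at least 1 FPKM in 1 library. With 1 library per group no model was fitted. Counting intervals are exact (Clopper-Pearson for ratios, Poisson for levels) with 4 counts as 1 read pair, rounded. The calls and intervals were tried on simulated data that held counting error only. The genes changed there had at least 5 FPKM, above every member but Cfp. Calls on scarce genes and variation between cultures were therefore not tested. Named were all 8 members, other complement genes with at least 10 FPKM or called at 2-fold, the 6 listed factors of at least 10 FPKM with the largest LPS difference, the 3 nearest patterns and neighbours within 5 kb; some genes that this names are not reported here. The members and lists were chosen with earlier results of these data known. All 8 genes had the same start and end in GENCODE M21. Python 3.11.15, numpy 2.4.6, pandas 2.3.3, scipy 1.17.1 and matplotlib 3.10.9 were used. The 8 alternatives set in advance were 2 other pseudocounts, no filter and a stricter one, 3 rescalings and a 1.5-fold threshold; the plain ratio was added.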

Additional observations from a re-analysis of the deposited data

How the results depend on the processing

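Counts follow the order LPS against control, harmine plus LPS against LPS, and harmine plus LPS against control. As reported, 706 and 880, 81 and 114, and 627 and 593 genes were higher and lower at 2-fold, and 1, 0 and 1 of the 8 members higher. With a pseudocount of 0.1 FPKM, 1068 and 1482, 350 and 226, and 1068 and 975 genes were higher and lower, and 5, 0 and 5 members higher. With a pseudocount of 5 FPKM, 347 and 291, 15 and 38, and 296 and 188 genes were higher and lower, and 0, 0 and 0 members higher. With TPM rescaling, 1327 and 1405, 345 and 254, and 1359 and 959 genes were higher and lower, and 5, 0 and 4 members higher. With a 1.5-fold threshold, 1426 and 2356, 646 and 408, and 1500 and 1652 genes were higher and lower, and 5, 0 and 4 members higher. With the plain FPKM ratio, chosen after seeing the data, 1074 and 1565, 405 and 254, and 1093 and 1021 genes were higher and lower, and 5, 0 and 5 members higher. With at least 5 FPKM in 1 library, 47 genes were higher with harmine plus LPS than with LPS, and only Cfp of the members was compared, so 0 members were higher in any comparison. Upper-quartile rescaling put 2 members, C1qa and C1qb, above 2-fold with LPS. Removing the filter or median-of-ratios rescaling changed no count of members. No member was 2-fold or more lower in any of the 3 comparisons under these alternatives. Of 195 recomputed differences of single members, 5 had the other sign, between -0.05 and 0.0025 log2. C2, whose plain ratio was 2.34 for harmine plus LPS over LPS, is not in the plain-ratio count because it stayed under 1 FPKM. The pseudocount moves the calls because 7 of the 8 members lie at or below 2.18 FPKM. Depth limits all of these: C1qc rests on 8 deposited counts in control, and no interval covers variation between cultures. No paired analysis was possible because each group holds 1 library.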

Other observations

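Away from the 8 genes, the proteases and the inhibitor of the C1 complex did not move as one. C1s1, encoding the C1s protease, stood at 0.0825, 0.518 and 1.07 FPKM in control, LPS and harmine plus LPS, 6.27-fold (2.44 to 27.9) higher with LPS than in control and 2.08-fold (1.27 to 3.48) higher with harmine plus LPS than with LPS. Serping1, encoding the C1 inhibitor, stood at 0.102, 0.361 and 0.829 FPKM, a ratio of 2.30 (1.14 to 4.69) for harmine plus LPS over LPS. C1ra, encoding the C1r protease, stood the other way, at 2.33, 1.49 and 1.35 FPKM. Near-identical copies (C1s2 for C1s1, C1rb for C1ra) can share reads with 2 of them. These 3 genes were named after their values were seen, and none was called at 2-fold on the log2(FPKM + 1) scale in any of the 3 comparisons.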
